A study of Homo sapiens with 73 samples.

Results

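The clustered protocadherins are 3 neighbouring gene arrays on human chromosome 5: PCDHA (alpha), PCDHB (beta) and PCDHG (gamma). The members were taken by symbol (PCDHA with a number, C1 or C2; PCDHB with a number; PCDHGA, PCDHGB and PCDHGC with a number; pseudogene symbols ending in P left out). There were 54 members among 36233 genes, 16 in PCDHA, 16 in PCDHB and 22 in PCDHG. In 51 of them the mean over all libraries was at least 10, the level required for testing: 14 of PCDHA, 15 of PCDHB and all 22 of PCDHG. The 3 others were PCDHA1 (mean 0.096), PCDHA14 (mean 0.0133, annotated as a transcribed pseudogene) and PCDHB1 (mean 4.97). The highest single values of PCDHB1 were 17.8, 14.3 and 12.9. PCDHA1 never rose above 1.34.

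Clustered protocadherins are cadherin-type adhesion proteins best known from neurons, where each cell switches on a few members and the combination on its surface sets which membranes recognise each other. In the alpha and gamma clusters each variable first exon has its own promoter and encodes the ectodomain, and is spliced to constant exons shared by the whole cluster; beta genes are single-exon genes. Promoter choice depends on DNA methylation, on the insulator protein CTCF and on cohesin, and once made it can be inherited by daughter cells. The members PCDHAC1, PCDHAC2, PCDHGC3, PCDHGC4 and PCDHGC5 are the C-type isoforms, which in neurons follow rules of their own.

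The question put to the data was whether the mix of isoforms drifted in its own way in each cell lineage over time. Bulk RNA was sequenced from CHLA-9 cells, a long-established line of Ewing sarcoma, a bone and soft-tissue tumour, with the EWSR1-FLI1 fusion. One library came from untreated parental cells, 49 from 7 drug-treated lineages (R1 to R7) and 23 from 3 lineages given the solvent DMSO (R8 to R10). Treated lineages were exposed for 5 days to a combination at its EC70, the dose with 70% of the full effect, then regrown without drug and sampled. Odd time points followed VDC (vincristine, doxorubicin and cyclophosphamide) and even ones EC (etoposide and cyclophosphamide), up to time point 10. No treated library from time point 2 and no DMSO library from time point 3 was used here. Libraries of 1 lineage are repeated samples of 1 culture, so a lineage was the unit of replication in the tests of mean slope and of treated against DMSO. The tests between lineages, of slopes that differ between lineages and of VDC against EC counted libraries. All groups share the cell line and its fusion, and bulk RNA cannot tell fewer expressing cells from less RNA per cell.

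All values are quantile-normalised counts as the authors deposited them, so sequencing depth is unknown. Of the Ewing sarcoma markers checked, FLI1 ranged from 794 to 1350, NR0B1 from 840 to 5540 and CCND1 from 18900 to 59500, whereas CD99 was between 0.00104 and 2.31 in every library. Why the CD99 values were this low was not tested, and they do not show whether the cells lack CD99. Among markers of other cells, the blood marker PTPRC had a median of 5.64, and the epithelial marker EPCAM had a median of 0.0293. Not all were that low. The epithelial markers ESRP1 and CLDN4 had medians of 35.1 and 25.9, and SYT1, from the neuron and glia list, had 317. The 6 fibroblast markers were all tested and abundant. Their summed level ran from 16700 to 83900 in treated libraries, from 8390 to 33500 in DMSO libraries and was 19800 in the parental library. Some late libraries stood apart in an earlier account of the series. They were R1 at time point 9, R2 at 10, R9 at 8 and 9, and R10 at 9 and 10. All 6 were therefore also left out together in a re-run, and results that depend on them are given both ways.

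In GRCh38 coordinates PCDHA spans chr5:140786136-141012347, PCDHB chr5:141051135-141249365 and PCDHG chr5:141330571-141512981, with all members on the plus strand (GENCODE release 29). RefSeq promoters (GRCh38.p14) were found for 47 of the 54 members. The 120 bases before the start site are printed below, 5′ to 3′, for members on which the results turn. PCDHA2, PCDHA10, PCDHB2 and PCDHB5 are from the alpha and beta clusters, whose members moved together more than those of gamma, although PCDHB5 fell faster than its cluster. The gamma genes are members named in the results below. Their positions are chr5:140794732-140794851 for PCDHA2, chr5:140855777-140855896 for PCDHA10, chr5:141094495-141094614 for PCDHB2, chr5:141135086-141135205 for PCDHB5, chr5:141330394-141330513 for PCDHGA1, chr5:141338640-141338759 for PCDHGA2, chr5:141397827-141397946 for PCDHGB5, chr5:141417557-141417676 for PCDHGB7 and chr5:141475846-141475965 for PCDHGC3. Capitals mark the 9-letter motif most frequent in each cluster's promoters among those that hold the letters CGCT. PCDHGA2, PCDHGB7 and PCDHGC3 carry none of the 3 motifs in this window.
PCDHA2: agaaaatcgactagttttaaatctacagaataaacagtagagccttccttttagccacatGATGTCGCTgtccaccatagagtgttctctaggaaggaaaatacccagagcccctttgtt
PCDHA10: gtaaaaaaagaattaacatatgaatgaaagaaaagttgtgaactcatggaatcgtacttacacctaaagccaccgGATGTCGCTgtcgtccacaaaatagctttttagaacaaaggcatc
PCDHB2: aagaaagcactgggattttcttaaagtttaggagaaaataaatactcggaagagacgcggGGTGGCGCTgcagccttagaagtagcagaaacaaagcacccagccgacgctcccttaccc
PCDHB5: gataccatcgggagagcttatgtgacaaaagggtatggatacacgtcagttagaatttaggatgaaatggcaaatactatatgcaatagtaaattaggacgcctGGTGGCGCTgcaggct
PCDHGA1: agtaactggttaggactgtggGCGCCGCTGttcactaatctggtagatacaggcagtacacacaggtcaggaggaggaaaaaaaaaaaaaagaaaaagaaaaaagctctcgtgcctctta
PCDHGA2: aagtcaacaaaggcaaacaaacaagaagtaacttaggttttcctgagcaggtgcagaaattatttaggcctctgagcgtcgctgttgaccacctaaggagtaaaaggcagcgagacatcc
PCDHGB5: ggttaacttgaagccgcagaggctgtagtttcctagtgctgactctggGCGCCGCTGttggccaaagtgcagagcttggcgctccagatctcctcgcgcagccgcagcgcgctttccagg
PCDHGB7: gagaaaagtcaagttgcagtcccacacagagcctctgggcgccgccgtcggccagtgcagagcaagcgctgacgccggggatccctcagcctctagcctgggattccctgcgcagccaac
PCDHGC3: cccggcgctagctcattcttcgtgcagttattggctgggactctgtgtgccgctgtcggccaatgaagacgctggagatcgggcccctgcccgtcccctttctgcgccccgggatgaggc

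The motifs were picked from these promoters themselves, so their presence is a description. All 3 share the core CGCT, and both strands were searched over 35116 RefSeq promoter windows of one length. GATGTCGCT was in 9 of 13 PCDHA promoters, in no PCDHB or PCDHG promoter and in 0.105% of all promoters. GGTGGCGCT was in 13 of 14 PCDHB promoters, in none of the other members and in 0.501% of all. GCGCCGCTG was in 10 of 20 PCDHG promoters, in none of the other members and in 1.28% of all. The core alone was in 46 of the 47, but also in 24584 of all promoters.

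A single gamma gene dominated its cluster, while alpha and beta expression was spread over many members. PCDHGC3, the C-type gamma isoform, had a mean of 942 quantile-normalised counts (± 189 SD over all libraries), with a range of 618 to 1500. The next gamma members were PCDHGA2 at 84.5 ± 23.2, PCDHGA6 at 70.8 ± 17.6 and PCDHGA4 at 59.7 ± 15.9. In PCDHA the highest were PCDHAC2 at 233 ± 62.4, PCDHA4 at 216 ± 76.9, PCDHA6 at 215 ± 36.4 and PCDHA10 at 194 ± 85.4. In PCDHB they were PCDHB2 at 348 ± 81.6, PCDHB10 at 292 ± 82.1, PCDHB16 at 196 ± 53.5 and PCDHB9 at 158 ± 43.6. These 4 alpha means lie within the spread of one another, whereas PCDHGC3 did not overlap any other gamma member in any library. Per kilobase of exon that no other gene shares, PCDHGC3 still led with a mean level of 290 per kb. PCDHB2 followed at 99.2 per kb, PCDHB10 at 90.0, PCDHAC2 at 73.1 and PCDHA6 at 65.7. On this scale PCDHA4 (20.5 per kb) and PCDHA10 (20.3 per kb) were among the lower alpha members, since both have long exons of their own. How reads over the constant exons shared by a cluster were assigned is not given in the sources used here.

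The number of isoforms in use was summarised per library as the inverse Simpson index of the members' shares, which equals the number of genes if all are equal. It was 10.4 ± 0.667 in PCDHA (SD over 49 treated libraries) and 10.3 ± 0.841 over 23 DMSO libraries. In PCDHB it was 10.1 ± 0.806 and 9.83 ± 0.663, and in PCDHG 3.55 ± 0.665 and 3.48 ± 0.563. PCDHGC3 was the top gamma isoform in all 72 lineage libraries, with 40.2% to 68.0% of the cluster's signal (median 52.3%). PCDHB2 led the beta cluster in 66 libraries and PCDHB10 in the other 6. The top alpha isoform varied: PCDHAC2 in 30 libraries, PCDHA4 in 21, PCDHA6 in 11 and PCDHA10 in 10. Shares are not per length.

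Members of the alpha and beta clusters went up and down together across libraries. Over 72 libraries the median Pearson correlation of log2 values between pairs was 0.687 within PCDHA (91 pairs), 0.696 within PCDHB (105 pairs) and 0.299 within PCDHG (231 pairs). The mean log2 levels of PCDHA and PCDHB correlated at 0.749, those of PCDHA and PCDHG at 0.717 and those of PCDHB and PCDHG at 0.575. The libraries share lineages and time points, so these values are descriptions. Genes beside or between the clusters followed less: with the PCDHA mean, HARS2, a mitochondrial histidyl-tRNA synthetase upstream of the clusters, had 0.455. HDAC3, a histone deacetylase gene, had 0.154, and TAF7, a transcription initiation factor gene that lies between the beta and gamma clusters, had -0.0453. The members that followed the rest of their own cluster least were PCDHB8 (-0.0411), PCDHGC5 (0.134), PCDHAC2 (0.32) and PCDHGC3 (0.32). PCDHA9 (0.94) and PCDHB13 (0.916) followed it closely.

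Single libraries raised many members at once. R1 at time point 3 held the highest value of 10 members, and R9 at time point 2 and R8 at time point 1 held that of 8 each. R9 at time point 9 held the lowest value of 22 members. The libraries of R9 at time point 2 and of R1 at 3 stood apart in other genes as well. They held the lowest values of UHRF1, which maintains DNA methylation (355 and 386), ESCO2, a cohesin acetyltransferase (97.3 and 135), and DNMT3B, a DNA methyltransferase (37.7 and 69.3). They also held the highest values of PDS5B (6380 and 7030), and R1 at time point 3 had the lowest CTCF (838). These genes were picked after their values were seen, from 13 genes for CTCF, cohesin and its regulators and 16 of DNA methylation and silencing. R8 at time point 1 held none of these extremes. The part of these genes in the peaks was not tested. The members with the largest ratio of highest to median library were PCDHGC5 (4.42, in R9 at time point 9), PCDHA9 (3.2, in R1 at time point 3), PCDHA10 (3.01, in R1 at time point 3), PCDHGB5 (2.79, in R9 at time point 9) and PCDHGC4 (2.68, in R1 at time point 4). PCDHA10 reached 529 in R1 at time point 3, between 141 at time point 1 and 327 at time point 4. PCDHA9 reached 387 in the same library against a median of 121. The peaks of PCDHA10 and PCDHA9 in R1 did not last: by time point 9 they were at 103 and 75. Those of PCDHGC5 and PCDHGB5 were in the last library of R9, so whether they lasted is unknown.

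Alpha and beta levels were mostly lower late in the course in both arms. The mean log2 level of the tested PCDHA members was 7.03 ± 0.294 at treated time point 1 (SD, n = 6), 6.49 ± 0.325 at time point 6 (n = 6) and 6.14 ± 0.459 at time point 10 (n = 3). In DMSO lineages it was 6.96 ± 0.53 at time point 1 (n = 3) and 5.91 ± 0.433 at time point 9 (n = 3), the lowest DMSO mean, and 6.39 ± 0.664 at time point 10 (n = 2). For PCDHB the treated means were 6.89 ± 0.273 at time point 1 and 6.54 ± 0.446 at time point 10, and the DMSO means were 7.11 ± 0.0532 at time point 1, 6.10 ± 0.419 at time point 9 and 6.62 ± 0.617 at time point 10. R8 ended at 7.05 in PCDHB, near its 7.09 at time point 1, and at 6.86 in PCDHA against 7.57. For PCDHG the treated means were 5.60 ± 0.258 at time point 1 and 5.17 ± 0.365 at time point 10. The slope of the PCDHA mean was below 0 in 6 of 7 treated lineages and in 3 of 3 DMSO lineages, and the same counts held for PCDHB and PCDHG. R5 was the exception in each cluster, with slopes of 0.00762 for PCDHA, 0.0299 for PCDHB and 0.00369 for PCDHG per time point. However, R5 has no library from time point 1, so its slopes cover a shorter course. Its first library, at time point 3, was the lowest treated one of that time point in each cluster.

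The single parental library did not share the high starting level. Its mean log2 level was 6.09 in PCDHA, 6.10 in PCDHB and 5.06 in PCDHG, close to the late lineage libraries. It lay below all 9 time-point-1 libraries for 10 of 14 PCDHA, 9 of 15 PCDHB and 5 of 22 PCDHG members. PCDHA10 was at 63.6 in the parental library and at 141 to 363 at time point 1. PCDHAC2 was at 340 in the parental library against a median of 220 over all libraries, the only tested alpha member above its median there. The fall therefore began from a level at time point 1 that was above the parental one, and with 1 parental library that step has no replicate check.

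**Figure D1:**
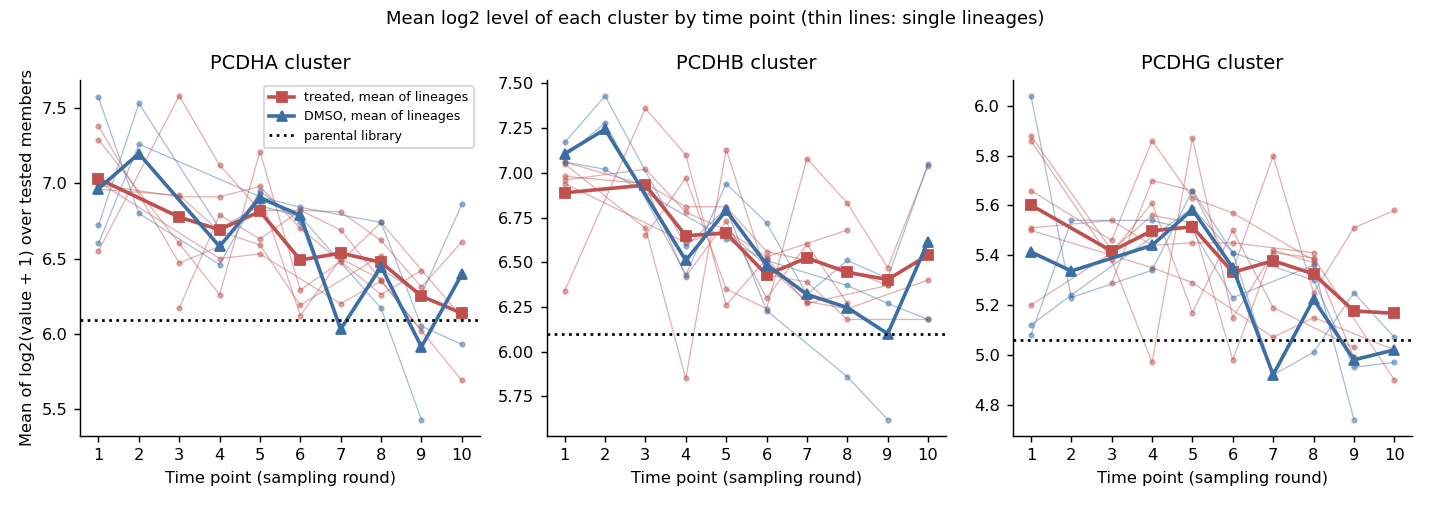
Mean of log2(value + 1) over the tested members of each cluster (vertical axis) against time point (horizontal axis), with thin lines for single lineages, thick lines for the mean of each arm and a dotted line for the parental library. In PCDHA the treated mean moves from 7.03 at time point 1 to 6.14 at time point 10, near the parental library at 6.09.

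Per gene, the mean slope over the 7 treated lineages was tested against 0 with limma, with Benjamini-Hochberg adjustment over 14565 genes and an adjusted p under 0.05 as the threshold. Of the 51 members, 23 fell and 0 rose (limma, with 1 member higher at an unadjusted p under 0.05), against 22.8% of all tested genes called lower and 16.3% higher. The 23 were 12 of 14 PCDHA, 6 of 15 PCDHB and 5 of 22 PCDHG members. The median slope was -0.0585 per time point on the log2 scale for the members and -0.00759 for all genes, and 47 of 51 members had a negative slope. By cluster the median was -0.094 in PCDHA, -0.0585 in PCDHB and -0.0416 in PCDHG. The 2 alpha members that did not pass were PCDHA6 and the C-type PCDHAC2.

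The steepest falls were in PCDHB5 and PCDHGB5. At time point 1 PCDHB5 was at 46.4 in R1, 62.6 in R2, 71.3 in R3, 74.7 in R4, 83.7 in R6 and 62.8 in R7. In the last library of the same lineages it was at 25.1, 16.8, 27.9, 39.6, 34.8 and 19.7. R5 went from 62.2 at time point 3 to 46.2 at time point 10. No last value of R1 to R4, R6 and R7 reached the lowest value at time point 1, and the slope was -0.169 ± 0.0272 (SE, 7 of 7 lineages negative; adjusted p by limma = 0.00161). PCDHGB5 was at 46.9, 56.2, 56.3, 47.8, 65.8 and 61.1 in R1, R2, R3, R4, R6 and R7 at time point 1, and at 18.9, 20.0, 28.3, 9.64, 9.43 and 24.6 in their last libraries. These values again did not overlap, and the slope was -0.154 ± 0.0343 (7 of 7 lineages, adjusted p by limma = 0.00609). In R5 it went from 42.9 at time point 3 to 26.6 at time point 10. The last libraries came from time points 8 to 10. Both genes were picked for their steep slopes, so the lack of overlap is a description. PCDHB6 had a slope of -0.149 ± 0.0297 (adjusted p by limma = 0.00384) and PCDHA12 one of -0.136 ± 0.0287 (adjusted p by limma = 0.00478), both negative in all 7 lineages. PCDHA13 (-0.112) and PCDHA9 (-0.109) were negative in 6 of 7. The highest slope was that of PCDHB8, 0.0437, which did not pass the threshold.

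**Figure D2:**
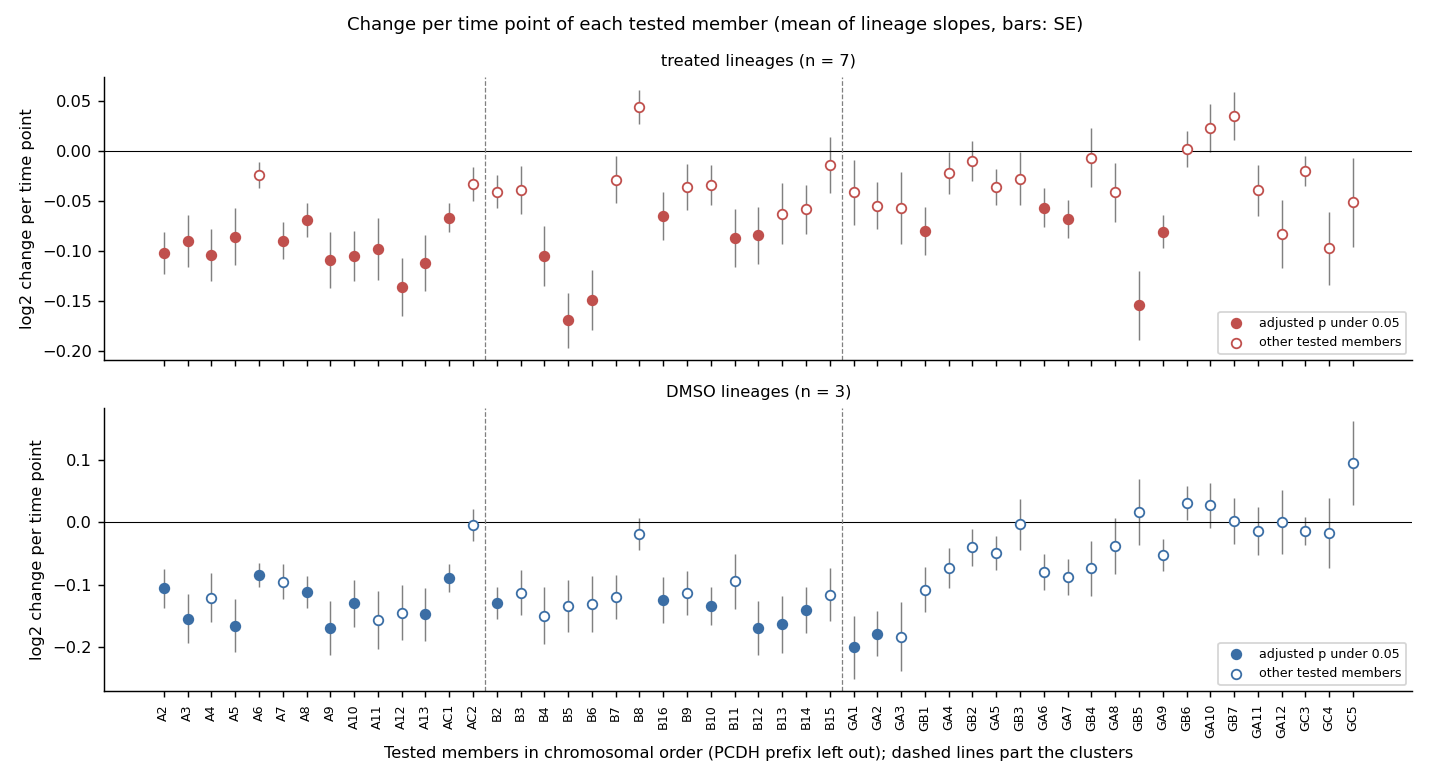
Mean log2 change per time point (vertical axis) of each tested member in chromosomal order (horizontal axis). The 7 treated lineages are above and the 3 DMSO lineages below. Bars are standard errors from a spread fitted over both arms. Filled points have an adjusted p under 0.05. Nearly all alpha and beta members lie below 0 in both arms. Most of the last gamma members lie nearer to 0 or above it in both arms. In the treated lineages PCDHGC4 and PCDHGA12 lie as low as many alpha members, but no difference between the arms' slopes passed the threshold.

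In the 3 DMSO lineages 17 members fell and 0 rose (limma; 0 higher also at an unadjusted p under 0.05), against 6.14% of all genes lower and 6.11% higher. They were 9 PCDHA, 6 PCDHB and 2 PCDHG members, with a median slope of -0.108 over all 51 members and -0.00912 over all genes. Of the members called in the treated arm 43.5% were also called in the DMSO arm, and of those called in the DMSO arm 58.8% were called in the treated arm (10 members). Of all 51 members 45.1% were called in the treated arm and 33.3% in the DMSO arm, so the overlap is a description only. Among the members that passed, the largest slopes were PCDHGA1 at -0.201 ± 0.0501 (adjusted p by limma = 0.0298), PCDHGA2 at -0.179 ± 0.0363 (0.0166), PCDHB12 at -0.170 ± 0.0431 (0.0317), PCDHA9 at -0.170 ± 0.0430 (0.0317), PCDHA5 at -0.166 ± 0.0432 (0.0341) and PCDHB13 at -0.164 ± 0.0462 (0.0423). PCDHGA1 fell in all 3, but by -0.399 per time point in R9 against -0.0957 in R8 and -0.110 in R10. The standard errors and p-values here do not rest on the 3 DMSO lineages alone. Their spread was fitted over the 7 treated and 3 DMSO slopes together, so it comes mostly from treated lineages.

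These counts rest on few libraries. Without time point 1 the treated count was 3 (PCDHA2, PCDHB5 and PCDHGB5) and the DMSO count 0, while the members' median slopes stayed at -0.0615 and -0.117. Without R9, or without R10, the DMSO count was 0. Without R2 the treated count was 14. Without the 6 late libraries the treated count was 24, of which 19 were among the 23. The DMSO count was then 12, of which 6 were among the 17: PCDHA3, PCDHB2, PCDHB10, PCDHB12, PCDHB13 and PCDHB14. PCDHA3 was the only alpha member left. PCDHGA1, PCDHGA2, PCDHA9 and PCDHA5 did not pass there, so the DMSO calls in alpha and gamma depend on those late libraries. The difference between the arms' slopes passed for 0 members and 0% of all genes (limma; 6 members at an unadjusted p under 0.05). Nearest were PCDHB2 (0.089 ± 0.0306 treated minus DMSO) and PCDHGA2 (0.124 ± 0.0433), each with an adjusted p by limma of 0.493. A difference in drift between drug and solvent was thus not shown, nor its absence.

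To separate the isoform mix from the level of the cluster, each member was also taken relative to the mean log2 level of its cluster in the same library, an alternative added after the data were seen. On that scale 8 members changed in the treated lineages. PCDHB8 gained 0.106 per time point (± 0.024 SE, adjusted p by limma = 0.00672), PCDHGB7 0.079 (0.0125), PCDHGA10 0.067 (0.0172), PCDHA6 0.063 (0.00956) and PCDHGC3 0.024 (0.043). PCDHGB5 lost ground at -0.110 (0.0154), PCDHB5 at -0.107 (0.00458) and PCDHB6 at -0.087 (0.00946). In this fit 39% of all genes were called, 16.3% higher and 22.7% lower, with genes outside the clusters left as they were. Gains on this scale are relative: none of the 5 gainers passed as higher in its own level, except PCDHB8 when lineage was a replicate block, without the intensity trend or without R7. In the DMSO lineages PCDHGA2 alone passed, at -0.131 (adjusted p by limma = 0.0389), against 12% of all genes, 6.05% higher and 5.93% lower.

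Whether each lineage kept a level of its own was tested with time point as a factor. Between the 7 treated lineages 2 members differed, PCDHGB7 and PCDHGA2, against 0.611% of all tested genes. Both are variable gamma genes. PCDHGB7 was lowest in R1, at 30.0, 21.5, 29.4, 35.3, 42.7, 27.2 and 30.7 over its 7 libraries. It was highest in R5, at 44.5, 63.6, 58.8, 56.1, 63.9, 47.8, 73.9 and 93.2. Every R5 value was above every R1 value. The adjusted log2 levels were 4.97 in R1 and 5.94 in R5, with the other lineages between 5.37 and 5.75, a range of 0.974 (adjusted p by limma = 0.00728). PCDHGA2 was lowest in R4, at 106, 67.0, 68.6, 52.8, 36.7, 42.0 and 65.3. It was highest in R5, at 103, 111, 103, 60.8, 119, 82.0, 106 and 106. Here the lineages overlapped, R4 having started at 106 at time point 1. The range was 0.745, from 5.91 in R4 to 6.66 in R5 (adjusted p by limma = 0.0249).

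**Figure D3:**
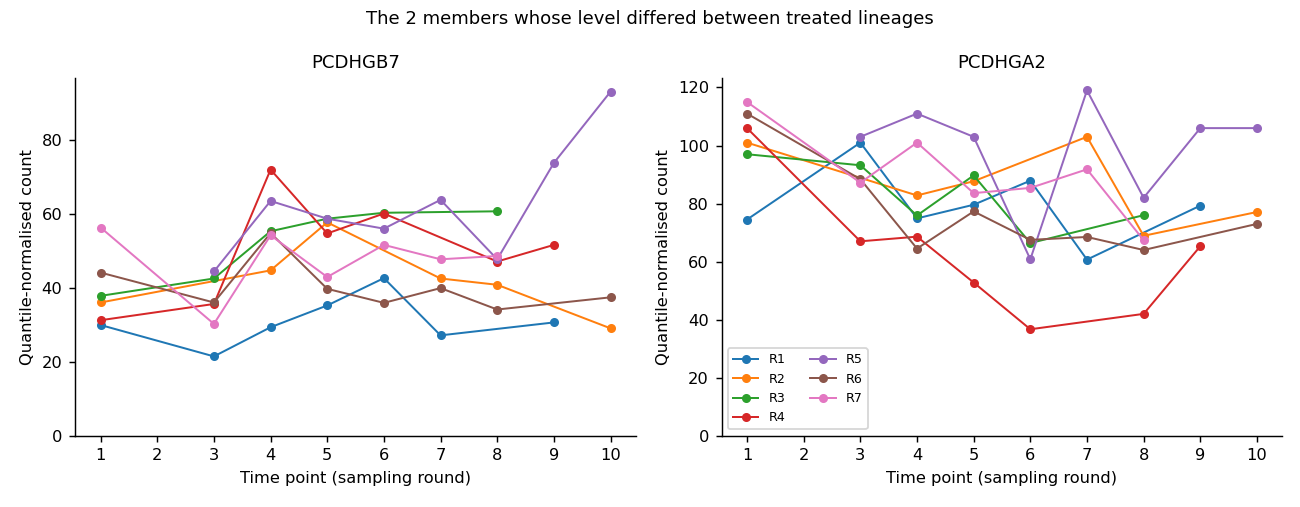
Quantile-normalised counts (vertical axis) of PCDHGB7 and PCDHGA2 against time point (horizontal axis), 1 line for each treated lineage. For PCDHGB7 the R1 line stays at 21.5 to 42.7 and the R5 line at 44.5 to 93.2; for PCDHGA2 the R4 line falls from 106 to 36.7 at time point 6.

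The lineage calls depend on single lineages. No member passed without R1 or without R5, and 1 passed without R4, without R6 or without R7. Relative to the cluster mean PCDHGA2 passed (adjusted p by limma = 0.0372) and PCDHGB7 did not (0.214), against 0.604% of all genes. In time points 1 to 5 no member differed between treated lineages (0.0893% of all genes; limma; 1 member at an unadjusted p under 0.05), and in time points 6 to 10 none did either (0.00687%; 12 members at an unadjusted p under 0.05). Nearest were PCDHGB7 (adjusted 0.52 early and 0.418 late by limma), PCDHGA2 early (0.693) and PCDHA12 late (0.418). The median range of adjusted levels over the members was 0.514 early and 0.742 late, beside 0.379 and 0.486 over all genes. Fewer libraries enter each of these fits, and the early and late ranges were not tested against each other. Between the 3 DMSO lineages no member differed (0.288% of all genes; limma; 2 members at an unadjusted p under 0.05), with PCDHGC4 (adjusted p by limma = 0.309) and PCDHGA4 (0.315) nearest.

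Lineages drifting apart would have slopes that differ. Among the treated lineages no member and 0% of all genes did so (limma; 2 members at an unadjusted p under 0.05), with PCDHA12 (adjusted p by limma = 0.452) and PCDHB11 (0.475) nearest. Among the DMSO lineages 2 members did, PCDHGB5 and PCDHB13, against 2.57% of all genes. PCDHGB5 in R8 was at 82.4, 41.3, 48.8, 43.5, 41.9, 31.5, 24.9, 16.7 and 29.9 over its course. In R9 it was at 29.5, 61.4, 62.8, 48.3, 47.9, 102 and 113. In R10 it was at 29.3, 44.3, 59.8, 45.4, 33.1, 46.6 and 55.5. The slopes were -0.174, 0.181 and 0.0438 (adjusted p of their difference by limma = 0.026), and R8 and R9 went opposite ways. PCDHB13 fell to 41.5 and 37.7 in R9 at time points 8 and 9, whereas R8 ended at 161 (adjusted p by limma = 0.0365). Neither passed without R8, without R9, without time point 1, with no filter on low values, without the 3 libraries that held the most highest values (an alternative chosen after seeing the data) or without the 6 late libraries (adjusted p by limma = 0.296 for PCDHGB5 and 0.301 for PCDHB13). Relative to the cluster mean PCDHGB5 alone passed (adjusted p by limma = 0.0407), against 2.54% of all genes.

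The last 2 libraries of R9 showed a shift along the gamma array. PCDHGA1, the first gamma gene, stood at 12.1 and 7.72, against 40.3 to 78.7 in R9's 5 earlier libraries. PCDHGA3, the third gene, stood at 5.14 and 1.44 against 14.6 to 28.5. At the other end PCDHGC5, the last gene, stood at 77.8 and 97.2 against 16.7 to 25.6. PCDHGB5 stood at 102 and 113 against 29.5 to 62.8. On the log2 scale the differences were -2.55 for PCDHGA1, -2.15 for PCDHGA2, -2.47 for PCDHGA3, 1.13 for PCDHGB5 and 2.03 for PCDHGC5. PCDHGC3, the dominant isoform, moved by 0.06. Over the 22 gamma genes the rank correlation between position and difference was 0.851 in R9, 0.297 in R10 and 0.153 in R8, a description across genes of the same libraries. All 14 alpha and 15 beta members were lower, with medians of -1.04 and -1.18. R10 showed PCDHGC5 at 23.0 and 48.6 in its last 2 libraries (log2 difference 0.97) and PCDHGA1 lower by -0.91. PCDHGC4 (-0.75) and PCDHGA12 (-0.92), which lie toward the same end as PCDHGC5, were lower in R10 as well. For the late library of R1 and that of R2 the rank correlations with position were -0.121 and 0.074. The contrast was chosen after the values were seen, in libraries already known to stand apart over the whole transcriptome, and has no test.

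**Figure D4:**
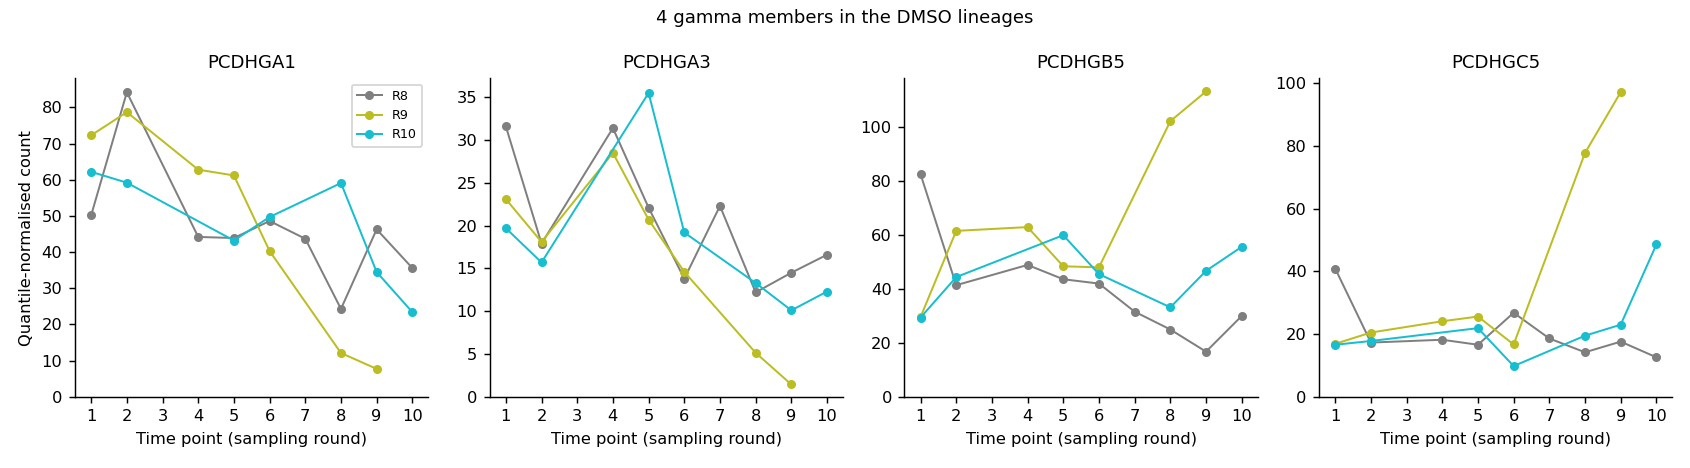
Quantile-normalised counts (vertical axes) of PCDHGA1, PCDHGA3, PCDHGB5 and PCDHGC5 against time point (horizontal axes) in the 3 DMSO lineages. In R9 the first pair drops to 7.72 and 1.44 at time point 9 while the second pair climbs to 113 and 97.2.

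**Figure D5:**
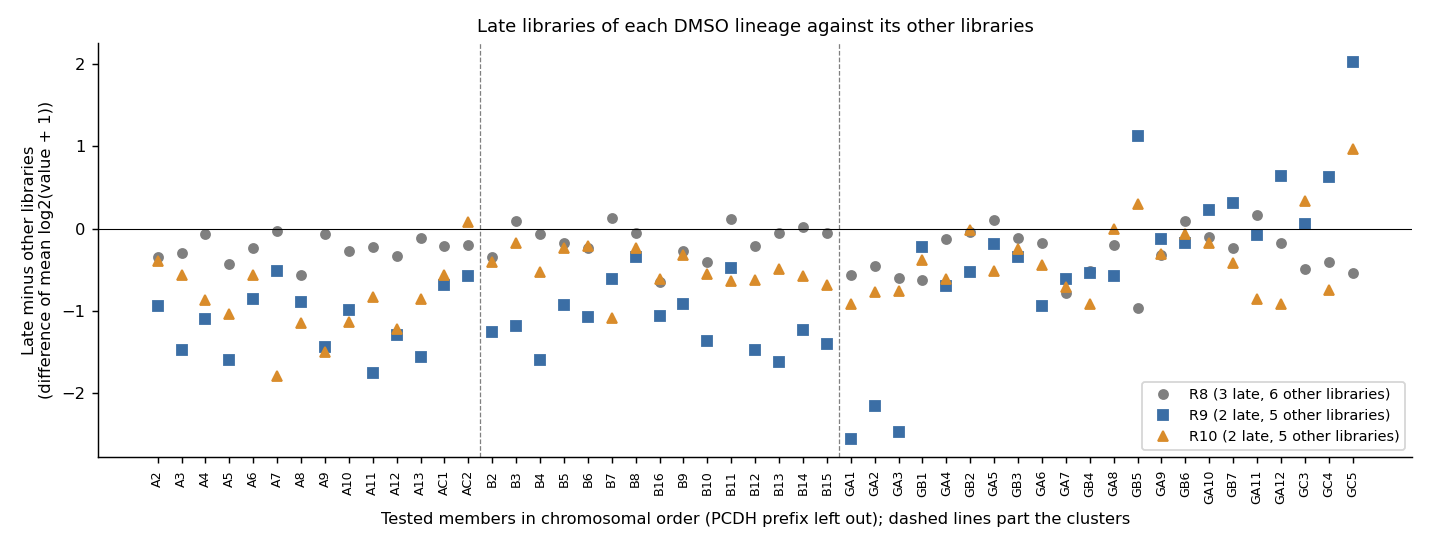
Difference in mean log2(value + 1) between the late libraries (time points 8 to 10 in R8, 8 and 9 in R9, 9 and 10 in R10) and the other libraries of each DMSO lineage (vertical axis) for every tested member in chromosomal order (horizontal axis). R9 runs from -2.55 at PCDHGA1 to 2.03 at PCDHGC5 along the gamma genes, while its alpha and beta members are all below 0.

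Isoform shares gave the most direct view of drift. The distance between 2 libraries was the percentage of a cluster's signal that would have to move to other members to turn one mix into the other. In PCDHA, treated libraries of 1 lineage that were 1 or 2 time points apart differed by a median of 9.64% (62 pairs). Libraries of different treated lineages at the same time point differed by 10.1% (118 pairs), and libraries of 1 lineage 5 or more time points apart by 9.99% (37 pairs). In PCDHB the 3 medians were 7.94%, 8.06% and 10.4%, and in PCDHG 9.78%, 8.30% and 8.71%. A neighbouring sample of the same treated lineage was thus about as far away as a sample of another lineage. In the DMSO arm the same medians were 10.2%, 10.0% and 12.2% in PCDHA, 8.29%, 8.57% and 9.36% in PCDHB, and 7.45%, 9.70% and 11.5% in PCDHG. Pairs share libraries and were not tested. The gamma mix farthest from the mean of all others was that of R9 at time point 9 (17.5%), and the alpha mix farthest from it was that of R1 at time point 3 (15.3%).

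No member passed the threshold for drug against solvent or for one combination against the other. Treated minus DMSO over all time points passed for 0 members and 0% of all genes (limma; 2 members at an unadjusted p under 0.05). The nearest were PCDHGB5, at -0.454 ± 0.151 (adjusted p by limma = 0.308), and PCDHGA12, at 0.353 ± 0.148 (adjusted p by limma = 0.338). After VDC minus after EC passed for 0 members against 0.281% of all genes (limma; 2 members at an unadjusted p under 0.05). Nearest to the threshold were PCDHGA2, at 0.217 ± 0.102 (adjusted p by limma = 0.297), and PCDHGA1, at 0.267 ± 0.131 (adjusted p by limma = 0.318). The combinations alternate with the time points and have no time point in common. The VDC against EC comparison counted libraries as replicates, with no lineage term in the main fit.

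Genes that act on these clusters were read in the same fit of the treated slopes, in which 22.8% of all tested genes fell and 16.3% rose. Shares of a list near these are not a result about the list. Of 13 genes for CTCF, cohesin and its regulators, 3 fell, near the share of all genes, and none rose. PDS5B, a cohesin-bound regulator, had a slope of -0.074 (adjusted p by limma = 0.004), STAG1, a cohesin subunit, -0.054 (0.0135) and PDS5A -0.027 (0.0281). CTCF itself was between 838 and 1380 in all libraries. Of 16 genes of DNA methylation and silencing 5 fell and none rose, among them HELLS, a chromatin remodeller, at -0.078 (0.000461), TET2, a methylcytosine dioxygenase, at -0.066 (0.00307) and EHMT2, a histone H3 lysine methyltransferase, at -0.052 (0.0101). Whether these genes took part in the fall of the protocadherins was not tested.

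In the same fit, against 16.3% of all genes higher and 22.8% lower, 9 of 12 protocadherin genes outside the clusters were tested, and 3 rose: PCDH10 at 0.436 (adjusted p by limma = 0.000878), PCDH9 at 0.141 (0.00139) and PCDH7 at 0.163 (0.00414). PCDH17 fell at -0.045 (0.0219). Of 8 tested genes next to or inside the clusters TAF7 rose at 0.035 (0.00835) and HARS2 fell at -0.041 (0.0119). Of 12 partners of protocadherin signalling 4 rose and 2 fell, against 39.1% of all genes called in either direction. WASF2, a WAVE-complex subunit, rose at 0.038 (0.00831), AXIN1, a scaffold of Wnt signalling, rose at 0.031 (0.00994) and PRKCA, a protein kinase C, rose at 0.063 (0.0102).

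Some cell type markers also had slopes that passed, against the same shares of all genes. Of 9 tested Ewing sarcoma markers 1 rose, GLI1 at 0.148 (adjusted p by limma = 0.0252), and 3 fell, PRKCB at -0.028 (0.0301), STEAP1 at -0.080 (0.031) and BCL11B at -0.052 (0.0318). Of 6 fibroblast markers 2 rose, COL1A1 at 0.388 (0.00114) and COL3A1 at 0.116 (0.0286). Of 5 tested neuron and glia markers SYT1 rose at 0.471 (0.000143) and SNAP25 fell at -0.169 (0.0022), and their summed level was 195 to 1960 in treated, 258 to 2430 in DMSO and 319 in the parental library. Of 2 tested epithelial markers ESRP1 rose at 0.317 (0.00277), with EPCAM, CDH1, KRT5 and KRT14 never above 6.07 and the list's summed level at 28.4 to 237 in treated, 31.5 to 214 in DMSO and 42.9 in the parental library. The blood markers PTPRC, CD3E, CD68, HBB and LYZ had means under the filter of 10 and were not tested, with medians of 5.64, 0.0118, 0.0274, 0.0474 and 0.0239 over the libraries. The part of these genes in the fall of the protocadherins was not tested.

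In the comparison of treated lineages no gene of any of these lists passed. Leaving out the blood list, the nearest in each were SMC3 (adjusted p by limma = 0.295), TET3 (0.419), PCDH18 (0.424), WDR55 (0.47), WASF2 (0.626), NKX2-2 (0.59), LUM (0.362), CLDN4 (0.28) and SYT1 (0.295). None passed for treated minus DMSO either. There the nearest were SMC1A (0.363), TET1 (0.281), PCDH9 (0.256), HDAC3 (0.444), NCKAP1 (0.415), NR0B1 (0.257), COL1A2 (0.271), ESRP1 (0.389) and SYT1 (0.439).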

How the data were processed

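The deposited table holds quantile-normalised counts per gene, a normalised signal rather than raw counts, in 73 libraries. Reads were aligned with STAR and counted with featureCounts on GRCh38, per the submitters' processing notes; versions, strandedness and the treatment of reads shared between genes are not given in the sources used here. In the deposited values both arms follow nearly the same distribution (largest log2 gap above a value of 10: 0.0183), so differences are relative to all genes. Values were analysed as log2(value + 1) for 14565 genes with a mean of at least 10, with limma 3.58.1 in R 4.3.3 (moderated statistics with an intensity trend). P-values were adjusted over all genes. The tests of mean slope and of treated against DMSO used 1 value per lineage, with 1 spread fitted over both arms. The tests between lineages, of lineage-specific slopes and of VDC against EC used libraries, which are repeated samples of a culture. The lineage number pairs libraries, since same-numbered libraries come from 1 culture. Named members were the 4 of highest mean per cluster, up to 6 per test by effect (or the 2 of smallest p), the 5 of largest highest-to-median ratio and up to 3 genes per list. Members and lists were chosen with earlier results of these data known. One marker gene is not reported here. Scripts were tested on simulated data. Alternatives were another pseudocount (5), filter (none or 50), no trend, leaving out lineages or libraries, a linear time term, a replicate block and other isoform indices.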

Additional observations from a re-analysis of the deposited data

Results flagged for a closer look

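In 5 of 59 sets of treated libraries or lineages that were checked, 1 member of the set lay far from the others by Dixon's test at the 95% level, which chance gives in about 1 in 20 sets. The mean log2 level of PCDHB at time point 1 was 6.34 in R1, with the next of the 6 libraries at 6.94 and the highest at 7.06. The number of PCDHB isoforms in use at time point 5 was 8.7 in R7, with the other 6 libraries between 9.82 and 10.2. R5 stood apart in 3 slopes. Its slope was 0.0616 per time point for PCDHA9, against -0.174 to -0.11 in the other 6 treated lineages. For the mean log2 level it was 0.00762 in PCDHA, against -0.129 to -0.0878, and 0.0299 in PCDHB, against -0.103 to -0.0598. R5 has no library from time point 1 here.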

How the results depend on the processing

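Of 210 re-runs, 177 stayed near the main result and 33 moved, and no named member changed direction. Near means counts of members called at 0 or within 1.5 times the main count, or isoform numbers within 1 SD over libraries. The 177 are not a measure of how stable the calls are, since many re-runs belong to tests with a main count of 0. Nearly all of those stayed at 0. Most of the re-runs that moved belong to the tests that called members, which were less stable. Lineage calls in the treated arm (2) became 1 at a mean filter of 50, with a linear time term or relative to the cluster mean, and 0 to 2 with each lineage left out. DMSO lineage-specific changes (2) became 0 with no filter, without the 6 late libraries or without the 3 high libraries, 1 at a filter of 50 (PCDHB13), without time point 1 (PCDHB10, not among the 2) or relative to the cluster mean (PCDHGB5), and 0 to 6 with each lineage left out. Treated slopes (23) became 3 without time point 1 and 8 relative to the cluster mean, and 14 to 27 with each lineage left out, the lowest without R2. DMSO slopes (17) became 5 with no filter, 0 without time point 1, 6 without the 3 high libraries and 1 relative to the cluster mean, and 0 to 28 with each lineage left out. They were 28 without R5 and 10 without R6, treated lineages that enter the shared spread. The difference in slope and the treatment difference were 0 to 1 with each lineage left out, 1 in each case without R8. The exponential of the Shannon entropy gave 11.8 isoforms in PCDHA, 12.2 in PCDHB and 8.03 in PCDHG, since it weights rare isoforms more. Apart from settings that use fewer samples, the cause was not tested. With lineage as a replicate block, treated slopes called 31 members (30 lower, 1 higher, PCDHB8), and the comparison of VDC with EC called 0. The block was run for these tests only. Depth is unknown, and p-values between lineages and for VDC against EC rest on repeated samples of single cultures. In addition, 3 DMSO lineages and 1 parental library limit what can be shown.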
